A study of Mus musculus with 3 samples.

Results

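Interferon-stimulated genes were followed through the immune cells of newborn mouse liver, to ask which cells held the interferon tone of that tissue at baseline and where it was lower without Pex2. The set is a list of 34 mouse gene symbols, and its members are the rows of the deposited count matrices that carry one of those symbols. Of the 34 genes, 32 had a row among 19059 genes, and the GTPases Mx1 and Mx2 were not analysed here. Viable cells bearing CD45, the surface phosphatase shared by leukocytes, were sorted from liver at postnatal day 0, fixed, and measured with gene-specific probes. There was 1 library of each Pex2 genotype: pex2+/+ (WT), pex2-/+ (Het) and pex2-/- (KO). Pex2 encodes a ubiquitin ligase of the peroxisomal membrane, without which enzymes do not enter peroxisomes, and its loss models Zellweger disease. No other allele or treatment is named, and how many animals went into a library is not stated in the sources used. Every difference below therefore lies between single libraries without replicates and carries no p-value, and all intervals are 95% intervals of counting error.

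Interferons are secreted proteins that warn cells of viral nucleic acid. Type I interferons bind the receptor Ifnar1 with Ifnar2, whose kinases Jak1 and Tyk2 phosphorylate transcription factors of the STAT family. These join Irf9 to form a complex that binds the interferon-stimulated response element, ISRE, in the promoters of many interferon-stimulated genes. Some of these genes encode factors that sustain or restrain the response, such as Irf7, a transcription factor for interferon genes, and Usp18, which removes Isg15 from proteins and dampens the receptor. Others encode sensors of foreign RNA or DNA, enzymes that degrade RNA or block translation, GTPases that attack microbes and membrane proteins that hold virus particles back. In the absence of infection, a low constitutive level of signalling keeps many of these genes on.

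The ISRE core lies near the start of some members and not of others. Below are the 160 bases before the start of 5 members whose levels the results turn on, in the direction of transcription, from RefSeq on GRCm38.p6. Capitals mark each match to the ISRE core GAAANNGAAA on either strand, with overlapping matches run together. The regions are chr4:156200819-156200978 for Isg15 (minus strand), chr3:142620503-142620662 for Gbp2 (plus), chr19:34583369-34583528 for Ifit3 (plus), chr8:71537473-71537632 for Bst2 (minus) and chr7:141266425-141266584 for Irf7 (minus).
Isg15: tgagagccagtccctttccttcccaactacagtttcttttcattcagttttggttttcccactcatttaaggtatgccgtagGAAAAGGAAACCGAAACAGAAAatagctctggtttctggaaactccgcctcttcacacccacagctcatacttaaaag
Gbp2: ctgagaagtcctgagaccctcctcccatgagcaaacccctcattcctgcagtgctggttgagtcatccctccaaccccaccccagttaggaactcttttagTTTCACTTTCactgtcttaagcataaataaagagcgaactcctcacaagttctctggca
Ifit3: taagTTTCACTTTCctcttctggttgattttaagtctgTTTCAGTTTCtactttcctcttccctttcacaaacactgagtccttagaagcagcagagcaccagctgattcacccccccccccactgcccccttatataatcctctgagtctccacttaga
Bst2: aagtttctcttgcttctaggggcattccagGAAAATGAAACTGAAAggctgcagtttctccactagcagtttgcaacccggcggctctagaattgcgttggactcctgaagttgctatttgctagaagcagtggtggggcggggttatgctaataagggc
Irf7: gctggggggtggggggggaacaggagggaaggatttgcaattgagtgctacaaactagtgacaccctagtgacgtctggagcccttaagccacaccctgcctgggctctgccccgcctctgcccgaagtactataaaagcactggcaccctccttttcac
Isg15 carries 3 overlapping matches, Bst2 carries 2 overlapping matches, Ifit3 carries 2 separate matches and Gbp2 carries 1, while these letters are absent from the Irf7 stretch. A window from 250 bases before to 50 bases after the start was found for 24 of the 34 genes by symbol. The ISRE core lay in the window of 13 of these 24 genes (54.2%), against 1079 of the 27025 genes in the table (3.99%), a gene counting when any of its windows held a match. A match is a description of letters and not a bound site.

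Depth differed between the libraries, at 96629431, 144589956 and 186295183 UMIs for WT, Het and KO, where a UMI is a molecular barcode that counts 1 captured molecule. They held 9600, 8000 and 8245 barcodes, with medians of 8218.5, 15558.5 and 19348 UMIs per barcode. No full barcode was shared between libraries, but 961 to 1184 per pair shared the part that marks the gel bead. The lack of shared full barcodes is therefore no check that the libraries are independent. Pex2 checks the labels: it had 2283, 7704 and 2 UMIs, or 23.6, 53.3 and 0.0107 CPM (UMIs per 1000000 UMIs of the library or class). It was nearly absent from KO, but its level in the library labelled Het exceeded that of the other control, against the order of the labels. The Y-linked gene Ddx3y had 7956, 2 and 3 UMIs, so the library labelled WT also stands apart by sex-linked expression. These 2 libraries are called labelled WT and labelled Het, and values run from labelled WT through labelled Het to KO throughout. Transcripts of a list of 22 neutrophil genes were found in each of the 8 classes compared. Their summed level was 43722, 43394 and 54912 CPM in monocyte-like cells and 58373, 94557 and 63443 CPM in macrophage-like cells. In conventional dendritic-like cells it was 26978, 25327 and 8803 CPM. Whether this RNA came from the abundant neutrophils or from the cells themselves was not tested.

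A gene was assessed in a set of cells when its mean over the 3 libraries was at least 10 CPM with at least 30 UMIs. It was called when KO differed from both other libraries on the same side by at least 1.5-fold and both intervals excluded 1. KO over labelled WT and KO over labelled Het share the KO library, and labelled Het over labelled WT is the only gauge of how far libraries differ apart from KO. A gene with a high level in only 1 library can pass the filter through that library, so counts over assessed members describe these libraries and no more. Levels are compared between classes and libraries and not between genes, since the sources used do not give the number of probes per gene.

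Over all barcodes, 5 members were lower in KO and 0 were higher. Of 17 assessed members, 5 (29.4%) were called lower, while 13.4% of 8327 assessed genes were, and 0 members were called higher, while 2.76% of assessed genes were. The 5 were Gvin1, a very large interferon-inducible GTPase, Bst2 or tetherin, which ties budding virus to the cell surface, Ifi27l2a, a small interferon-induced membrane protein, Ifi35, a partner of Nmi, and Dhx58 or LGP2, a regulator of the RNA sensors. Gvin1 (ENSMUSG00000045868, chromosome 7, 106156556 to 106215326, minus strand, GRCm38) stood at 45.0, 42.3 and 6.52 CPM. It was 6.90-fold higher in labelled WT than in KO (6.48 to 7.36) and 6.48-fold higher in labelled Het (6.09 to 6.90). Bst2 (ENSMUSG00000046718, chromosome 8, 71534255 to 71537456, minus strand) stood at 82.5, 76.9 and 25.5 CPM. Its intervals in the libraries labelled WT (80.7 to 84.4) and labelled Het (75.5 to 78.3) lay far above that in KO (24.8 to 26.3). Plasmacytoid dendritic-like cells, where Bst2 was nearly level, held 3368 of the 7976 Bst2 UMIs in labelled WT, 2269 of 11118 in labelled Het and 915 of 4758 in KO. They made up 1.07%, 0.596% and 0.175% of the UMIs in all classes, so the lower level over all barcodes goes with fewer such cells as well as with lower levels in other classes. Over all barcodes, fewer cells of a type and less RNA per cell cannot be told apart. Ifi27l2a (ENSMUSG00000079017, chromosome 12, 103442167 to 103443680, minus strand) stood at 56.6, 47.7 and 23.7 CPM, and Ifi35 stood at 31.9, 31.1 and 20.1 CPM. Dhx58 stood at 19.8, 13.6 and 9.0 CPM. In Gvin1, Bst2 and Ifi35 both control libraries were close and KO was low, whereas Dhx58 also differed between them.

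The other members with the highest levels over all barcodes were not called. Ifitm3, which blocks the entry of enveloped viruses, stood at 154, 257 and 306 CPM and so was lowest in the library labelled WT. Trim25, the ubiquitin ligase that switches on the sensor RIG-I, stood at 131, 113 and 84.3 CPM, and Irf9 at 48.2, 29.97 and 22.2 CPM. Cmpk2, a mitochondrial nucleotide kinase, stood at 46.2, 19.8 and 23.4 CPM, which set labelled WT apart from both others. Irf7 also stood apart in that library, at 40.9, 19.4 and 14.1 CPM. In all, 5 of the 17 assessed members were lower in labelled Het than in labelled WT by at least 1.5-fold with an interval that excludes 1, while 2.07% of all assessed genes were. Lower levels in KO than in labelled WT alone reached 9 members, against 5 for labelled Het alone. Shares of all genes for these single pairs are not given. Over the assessed members the median log2 ratio to labelled WT was −0.63 and that to labelled Het −0.42, beside −0.13 and −0.16 over all assessed genes. A trimmed-mean scaling (TMM) moved the median of all genes up by 0.28 and 0.34, and under it Ifi35 and Dhx58 were no longer called while Gvin1, Bst2 and Ifi27l2a still were.

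The second question was which cells held these transcripts at baseline. Cells were clustered without the members, without other interferon-induced genes and without Pex2, so that the levels below did not set the classes. By the median member, macrophage-like and conventional dendritic-like cells held the highest levels relative to other classes in each library. For this measure, the level of each member in a class was divided by the mean over 11 classes, and the median over the 32 members was taken. In labelled WT this median was 1.80 in macrophage-like and 1.72 in conventional dendritic-like cells, 0.985 in monocyte-like, 0.778 in stem and progenitor-like and 0.375 in neutrophil-lineage-like cells. In labelled Het the 2 leading values were 1.56 and 1.99, and in KO they were 1.40 and 1.55. Of the 32 members, 14 in labelled WT, 9 in labelled Het and 10 in KO had their highest level in macrophage-like cells. For 7, 8 and 5 members it lay in conventional dendritic-like cells. These tallies apply no floor: Ifit1 at 8.34 CPM and Ifi44 at 5.00 CPM are among the 14 in labelled WT. No member was highest in the neutrophil lineage in any library.

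Single members had other homes. Bst2 was highest in plasmacytoid dendritic-like cells, at 3426, 2733 and 2980 CPM; the protein is also a surface marker of that cell type. Rsad2, or viperin, an enzyme that makes a chain-terminating nucleotide, was highest in erythroid-like cells, at 217, 58.1 and 30.02 CPM, as was the exonuclease Isg20. Gvin1 and the RNA sensor Ddx58, or RIG-I, were highest in natural killer and innate lymphoid-like cells in each library. This class held only 17, 48 and 59 cells. In KO the Ddx58 level there, 54.2 CPM, was close to that in B-lineage-like cells, so its rank is uncertain. Irf7, Isg15, Ifit3, Oas2, Rtp4, Dhx58 and the kinase Eif2ak2 were highest in macrophage-like cells in each library. Because neutrophil-lineage-like cells made up most barcodes, they still held 42.0%, 37.4% and 55.0% of all member UMIs in the classes, although their summed member level was low, at 578, 478 and 535 CPM. Monocyte-like cells held 26.9%, 30.2% and 33.3% of member UMIs.

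**Figure D1:**
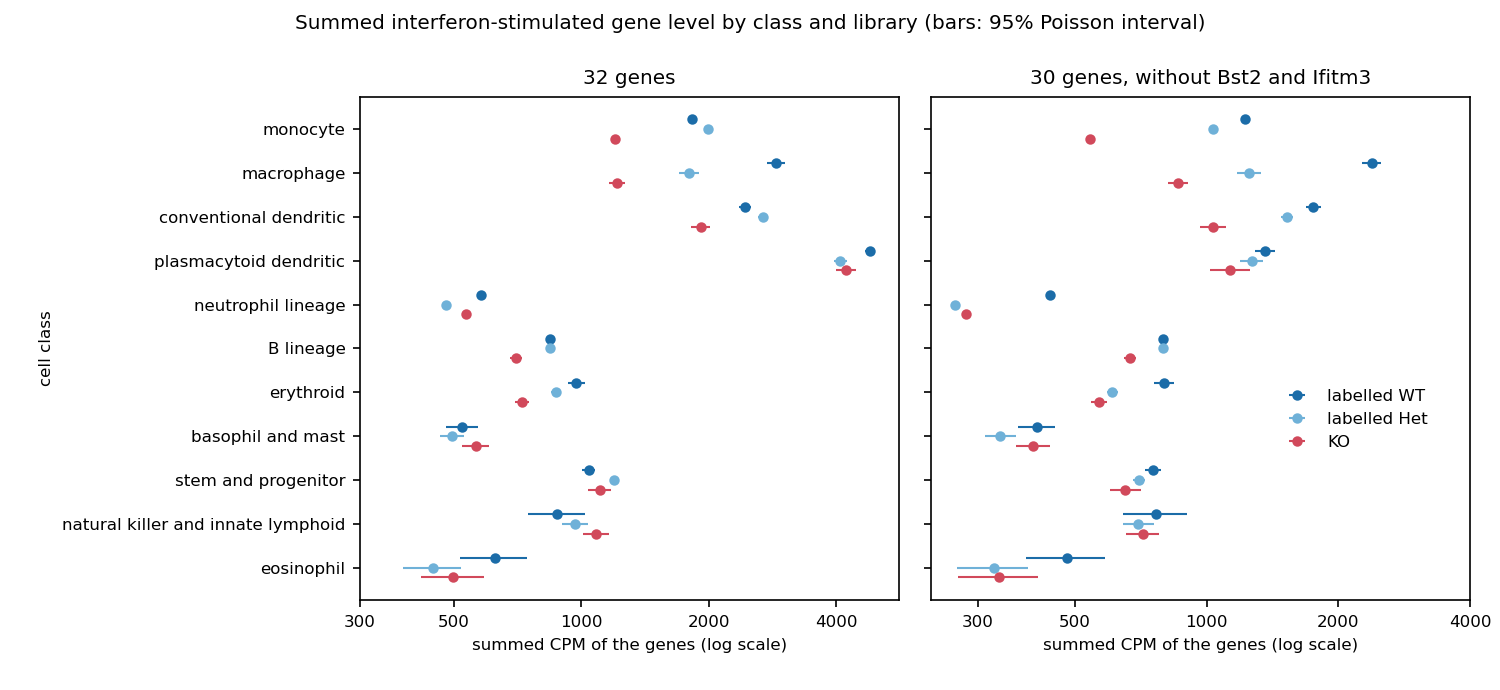
Summed CPM of the 32 genes (left) and of 30 genes without Bst2 and Ifitm3 (right) in 11 cell classes, on a log axis, with 1 point per library and bars for the 95% Poisson interval. Without those genes, KO has the lowest sum in monocyte-like, macrophage-like and conventional dendritic-like cells, at 540, 860 and 1034 CPM. It is also lowest in plasmacytoid dendritic-like, B-lineage-like, erythroid-like and stem and progenitor-like cells, at 1133, 668, 568 and 652 CPM.

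Summed over the 32 members, the level was 1826, 1994 and 1200 CPM in monocyte-like cells, 2887, 1797 and 1217 in macrophage-like cells and 2437, 2680 and 1914 in conventional dendritic-like cells. KO was lowest in each of these, and also in B-lineage-like cells (842, 843 and 701 CPM) and erythroid-like cells (972, 871 and 724 CPM). Plasmacytoid dendritic-like cells had the highest sum of the 11 classes in each library, at 4808, 4094 and 4214 CPM, most of it from Bst2. The plot of summed levels by class also gives the sums without Bst2 and Ifitm3, whose levels take up much of the total. These were 1221, 1036 and 540 CPM in monocyte-like, 2381, 1252 and 860 in macrophage-like and 1754, 1527 and 1034 in conventional dendritic-like cells. In plasmacytoid dendritic-like cells they were 1360, 1269 and 1133 CPM. The KO value was the highest of the classes, but it rests on 348 UMIs in 23 cells. Its interval, 1017 to 1259 CPM, overlaps that of conventional dendritic-like cells, 963 to 1108 CPM. Trim25 alone gave 449 CPM of this KO sum, and by the median member the class ranked 9 of 11 in KO. In B-lineage-like cells the sums without Bst2 and Ifitm3 were 796, 794 and 668 CPM. In the neutrophil lineage they were 438, 266 and 282 CPM, where KO and labelled Het lay close and labelled WT was high.

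The third question was where the set was lower in KO, and the plot of ratios by class gives the answer per gene. Monocyte-like, macrophage-like and conventional dendritic-like cells held 34 of the 40 calls of a lower member over 8 classes. They also had more assessed members, at 20, 26 and 25, against 13 or 14 in each other class. Called lower were 60%, 46.2% and 40% of these members, beside 10%, 6.14% and 6.68% of all assessed genes. In the other classes 0% to 14.3% of assessed members were called lower, beside 5.39% to 12.2% of all assessed genes. The median member ratio on the log2 scale reached −1.21 (to labelled WT) and −0.75 (to labelled Het) in monocyte-like cells, where it was −0.05 and −0.03 over all genes. It was −1.48 and −0.55 in macrophage-like cells (0.02 and 0.12 over all genes) and −0.86 and −0.58 in conventional dendritic-like cells (0.04 and 0.06). In B-lineage-like cells it was −0.08 and −0.01, and in the neutrophil lineage it was −0.36 and 0.10. By gene, Gvin1 was called lower in 5 of 7 classes where it was assessed, Bst2 in 4 of 7 and Ifi27l2a in 4 of 6. Irf7, Dhx58, Gbp2 and Trim30a were called lower in exactly the 3 classes named above, out of 5, 4, 4 and 8 classes assessed. No member was called lower in 1 of the 8 classes and higher in another, although Oas3, Oasl2 and Trim30a were higher in KO in the mature stage of the neutrophil lineage.

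In monocyte-like cells 12 of 20 assessed members (60%) were lower in KO and 0 were higher, beside 10% and 5.32% of 8566 assessed genes. The class held 758, 717 and 1202 cells. Both assessed GTPases, both assessed oligoadenylate synthetases and the DNA and RNA sensor Zbp1 were among them. Counted by role, the 12 were 2 of 3 transcription and feedback genes, 2 of 3 RNA-directed effectors, 2 of 5 sensors, both GTPases, 1 of 2 membrane factors and 3 of 5 other induced genes. Between the controls, 4 of the 20 members were lower in labelled Het than in labelled WT and 1 was higher. Of all assessed genes, 3.26% were lower in that comparison.

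Among the transcription and feedback genes, Irf7 (ENSMUSG00000025498, chromosome 7, 141262706 to 141266481, minus strand) stood at 75.5, 52.2 and 16.6 CPM. It was 4.56-fold higher in labelled WT than in KO (4.10 to 5.07) and 3.15-fold higher in labelled Het (2.83 to 3.51). Irf9 stood at 78.6, 51.8 and 33.3 CPM, and it was not called under TMM scaling. Stat2 was assessed but not called, at 29.6, 15.7 and 22.1 CPM. Isg15, the ubiquitin-like protein that is joined to other proteins, was under the filter at 10.2, 10.8 and 1.74 CPM. Irf7 thus differed between the controls as well, while Isg15 was level in them.

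Of the called members in this class, Gvin1 differed most from both controls, at 124, 124 and 11.3 CPM, and was 10.9-fold higher in labelled WT than in KO (9.77 to 12.3) and 10.9-fold higher in labelled Het (9.81 to 12.2). Gbp2, a guanylate-binding protein, stood at 17.3, 13.5 and 7.67 CPM. Among sensors, Zbp1, which can start necroptosis, stood at 48.6, 36.7 and 8.77 CPM, and was 5.54-fold (4.82 to 6.4) and 4.18-fold (3.64 to 4.82) higher in the labelled WT and labelled Het libraries. Dhx58 stood at 43.1, 33.4 and 20.7 CPM. The sensor Ifih1, or MDA5, was not called, at 22.7, 21.7 and 21.7 CPM, and Ddx58 was under the filter, at 11.2, 7.58 and 6.35 CPM. Zbp1 and the GTPases were thus low in KO, while Ifih1 hardly differed between any of the libraries.

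Oas2 and Oas3, which make the oligoadenylates that activate RNase L, stood at 17.7, 15.7 and 4.81 CPM and at 17.9, 17.6 and 5.67 CPM. The folds over KO were 3.67 (2.98 to 4.53) and 3.27 (2.68 to 4.0) for Oas2. The third assessed effector, Cmpk2, was high only in labelled WT, at 58.4, 22.9 and 24.1 CPM. Bst2 stood at 164, 202 and 61.9 CPM, so that labelled Het was highest and KO lowest. Ifitm3 stood at 440, 756 and 598 CPM, with KO between the others. Ifi27l2a stood at 264, 256 and 64.1 CPM, 4.13-fold (3.91 to 4.36) and 3.99-fold (3.79 to 4.20) above KO. The remaining called members were Ifi35, at 63.8, 59.9 and 32.5 CPM, and Trim30a, a ubiquitin ligase, at 63.2, 67.8 and 34.6 CPM. Of the other 10 members under the filter here, Rtp4, Oasl2, Isg20, Usp18, Rsad2, Ifit1, Ifit3 and Oasl1 were lower in KO than in both others, at 0.0590 to 2.98 CPM in KO, while Ifit2 was highest in KO at 4.50, 5.21 and 6.61 CPM, as was Ifi44 at 0, 0.0578 and 0.148 CPM.

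**Figure D2:**
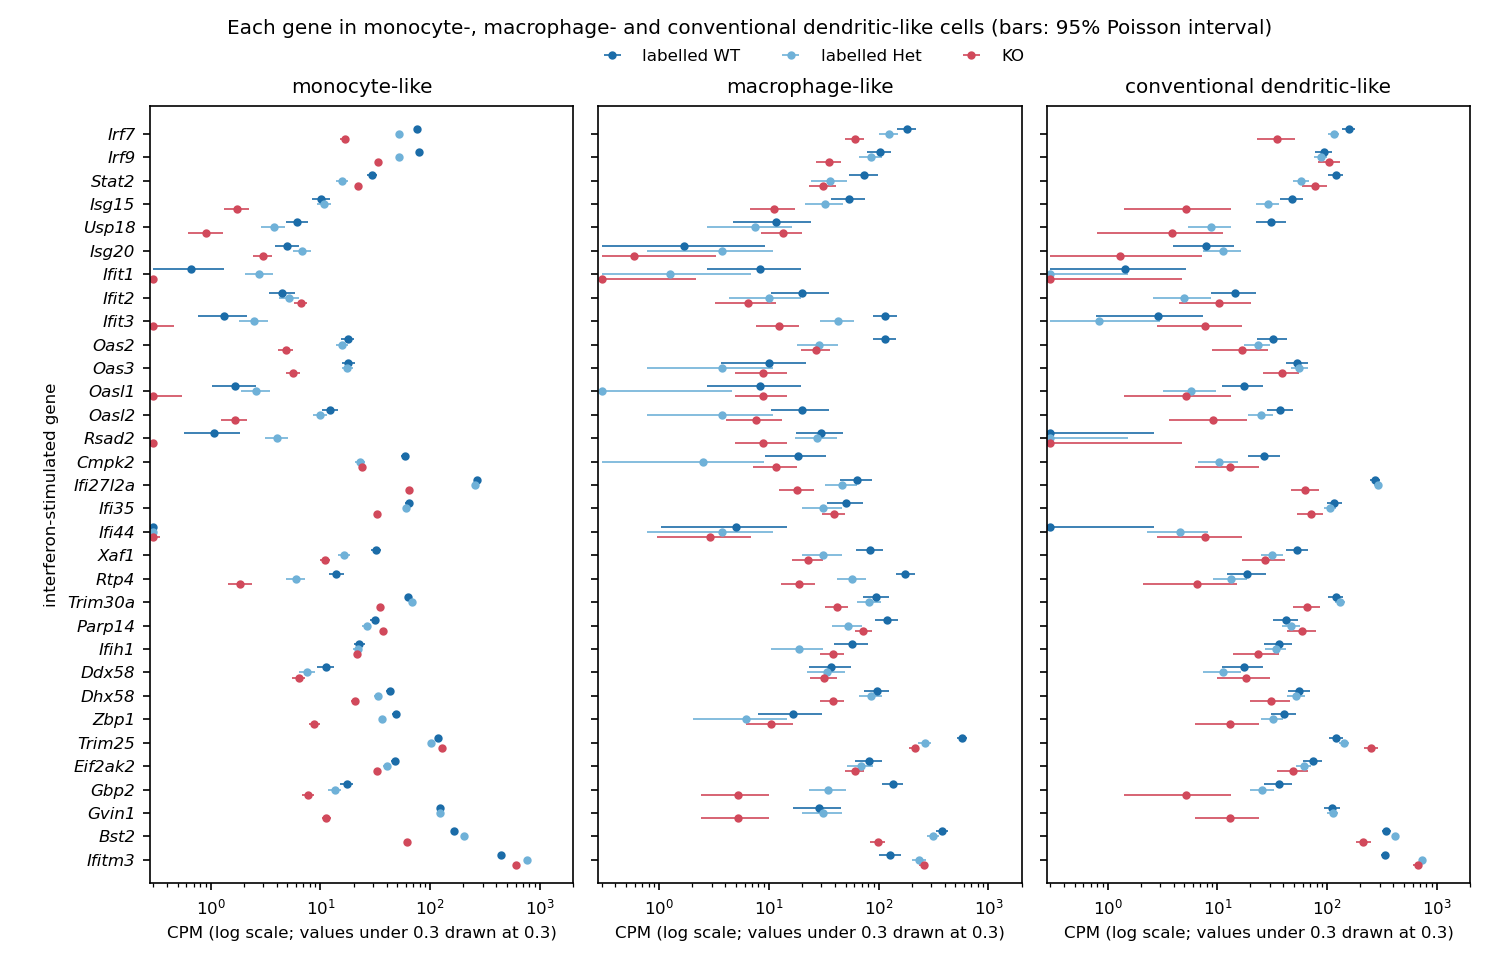
Level of each of the 32 genes in monocyte-like, macrophage-like and conventional dendritic-like cells, in CPM on a log axis, with 1 point per library and bars for the 95% Poisson interval. Gvin1, Irf7, Ifi27l2a, Bst2 and Gbp2 have the KO point lowest in all 3 panels, while Ifitm3 has the labelled WT point lowest.

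The monocyte-like class was made of different clusters in KO than in the controls. Member levels differed between these clusters and, within cluster 16, between libraries. Cluster 8 held 543, 411 and 10 cells, clusters 12 and 14 held 4, 23 and 590 and 0, 29 and 572 cells, and cluster 16 held 211, 254 and 30. Cluster 16 had the fewest UMIs of mitosis genes, with means of 0.452, 1.08 and 0.815 per cell at 3000 UMIs, and the highest member sums, at 3202, 3966 and 1761 CPM. The dividing cluster 8 had sums of 1578 and 1528 CPM in labelled WT and labelled Het. KO cells of cluster 12 had 1604 CPM and those of cluster 14 had 1001 CPM, beside 1498 and 1044 CPM for the few labelled Het cells there. Sums over all members were thus close between KO and labelled Het within clusters 12 and 14 and far apart within cluster 16. In cluster 16 the KO cells also held 12744 CPM of macrophage genes against 1880 CPM in labelled Het. Without Bst2 and Ifitm3, the sums in cluster 12 were 774 CPM in KO and 895 CPM in labelled Het. They were 423 and 509 CPM in cluster 14 and 859 and 2140 CPM in cluster 16, with KO lower in each.

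**Figure D3:**
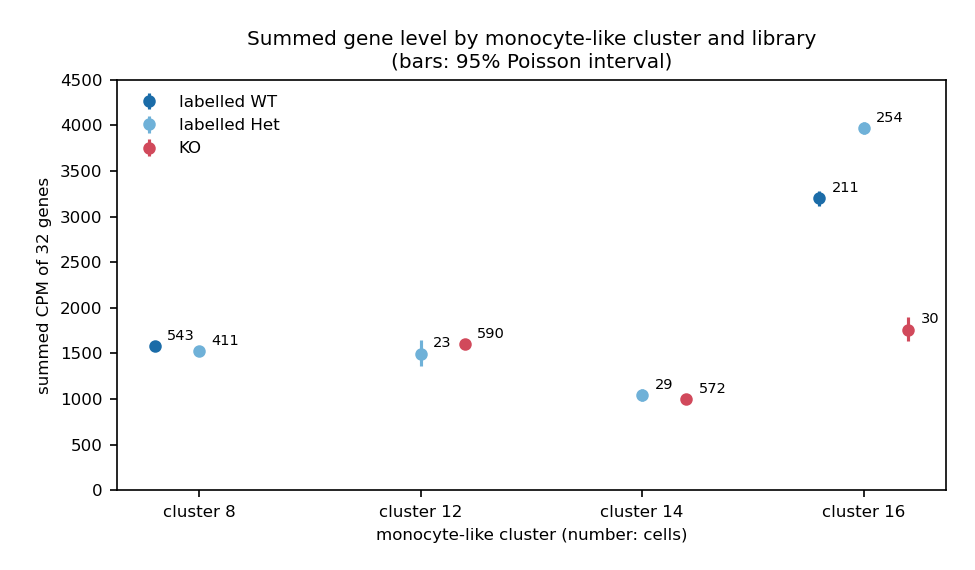
Summed CPM of the genes in each monocyte-like cluster with at least 20 cells of a library, with bars for the 95% Poisson interval. In cluster 16 KO lies at 1761 CPM, below 3202 and 3966 in labelled WT and labelled Het. In clusters 12 and 14 KO and labelled Het lie close together in these sums, which include Bst2 and Ifitm3. Without those genes KO was below labelled Het, at 774 against 895 CPM and 423 against 509 CPM.

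Within cluster 16 alone, where KO had only 30 cells, 12 of 25 assessed members were lower in KO and 0 were higher, beside 8.93% and 11.1% of 8232 genes. Of these 12 members, 9 were also among the 12 of the whole class. Markers of other cells moved in the same cells: the 16 macrophage genes summed to 1948, 1880 and 12744 CPM, the 8 megakaryocyte genes to 118, 4.30 and 595 CPM and the 22 neutrophil genes to 33266, 26766 and 4667 CPM, while the 13 monocyte genes summed to 11344, 12330 and 13055 CPM. The 30 KO cells were therefore not alike to the control cells of the cluster, and the part of this in the member levels was not tested. Ifi27l2a stood at 637, 732 and 63.3 CPM there, 9.86-fold (6.78 to 15.6) and 11.3-fold (7.81 to 17.9) above KO. Gvin1 stood at 161, 156 and 10.1 CPM and Zbp1 at 118, 96.5 and 7.60 CPM. Irf7 was higher in this cluster than in the class as a whole, at 232, 171 and 88.7 CPM. Cmpk2 had 0 UMIs in KO cells of the cluster, with an upper bound of 9.35 CPM, against 34.1 and 14.6 CPM. Without cluster 16, 6 of 18 assessed members were called lower and 0 higher, beside 10.9% and 5.88% of 8539 genes: Gvin1, Bst2, Zbp1, Ifi27l2a, Ifi35 and Trim30a. The calls of Irf7, Irf9, Dhx58, Gbp2, Oas2 and Oas3 were lost there.

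Division differed between these clusters, so cells were also split by mitosis UMIs. In dividing cells (at least 2 UMIs of 19 mitosis genes at 3000 UMIs) 7 of 18 assessed members were called lower and 0 higher, beside 9.16% and 4.83% of genes. In the other cells 16 of 24 were called lower and 0 higher, beside 17.5% and 8.22%. All 7 members of the first group were among the 12 of the whole class, and all 12 were among the 16 of the second. Isg15, Oasl2, Rtp4 and Eif2ak2 were the members added there. How far the make-up of the class sets the difference between libraries was not tested beyond these values.

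In macrophage-like cells 12 of 26 assessed members (46.2%) were lower in KO and 0 were higher, beside 6.14% and 8.79% of 8496 genes. This class held 73, 74 and 122 cells, all in cluster 26, so counts are low. It also showed a wide gap between the controls: 10 of 26 members were lower in labelled Het than in labelled WT, beside 9.72% of genes. The called members were 3 of 5 transcription and feedback genes, 2 of 5 RNA-directed effectors, 1 of 6 sensors, both GTPases, 1 of 2 membrane factors and 3 of 6 other induced genes. With each cell thinned to 3000 UMIs, which leaves fewer counts, 4 members were called lower in this class: Gbp2, Bst2, Irf9 and Dhx58.

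Irf7 stood at 180, 123 and 60.3 CPM, Irf9 at 102, 84.6 and 35.1 CPM, and Isg15 at 53.4, 32.4 and 11.1 CPM. Isg15 was 4.75-fold (2.64 to 8.96) and 2.89-fold (1.55 to 5.56) above KO. Of the calls over 8 classes, Gbp2 here had the largest fold between labelled WT and KO, at 135, 34.8 and 5.27 CPM, which is 24.4-fold (12.9 to 58.1) and 6.38-fold (3.03 to 15.9) above KO. KO held only 9 UMIs of Gbp2. Gvin1 stood at 28.3, 31.1 and 5.27 CPM, so its level in the control libraries was lower here than in monocyte-like cells.

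Ifit3, which binds viral RNA, stood at 115, 42.3 and 12.3 CPM, and was 9.21-fold (5.67 to 16.1) and 3.41-fold (1.94 to 6.24) above KO. Rtp4, a receptor chaperone that restrains viral replication, stood at 175, 57.2 and 18.7 CPM. For Gbp2, Ifit3 and Rtp4 the 3 libraries formed a descending series in which no neighbouring intervals overlapped. Rsad2 stood at 30.02, 27.4 and 8.78 CPM, Bst2 at 379, 314 and 98.4 CPM and Ifi27l2a at 63.4, 46.0 and 18.2 CPM. For Rsad2 and Bst2 both controls were close, with overlapping intervals, and KO lay below them. Dhx58 and Trim30a were the other called members, at 38.1 and 41.6 CPM in KO. Trim25 was not called, at 574, 264 and 212 CPM, and Oas2 was not, at 113, 28.6 and 26.9 CPM: both stood high in labelled WT and low in the other libraries.

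Markers of the class moved along with these levels. Gpnmb, a glycoprotein of lipid-laden macrophages, had 3, 7 and 1263 UMIs in the class (5.00, 8.71 and 740 CPM), and the haemoglobin scavenger receptor Cd163 stood at 385, 403 and 1061 CPM. Of its own list, Cd5l, a secreted scavenger protein of resident macrophages, stood at 3570, 4005 and 221 CPM, and Timd4, which binds phosphatidylserine, at 647, 565 and 208 CPM. The mannose receptor Mrc1 stood at 1262, 1284 and 2971 CPM, while the Kupffer cell lectin Clec4f stood at 3962, 3823 and 2659 CPM and C1qa at 5296, 5439 and 5555 CPM. The summed level of the 16 macrophage genes was 41781, 48439 and 33438 CPM. Their part in the result was not tested.

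In conventional dendritic-like cells 10 of 25 assessed members (40%) were lower in KO and 1 was higher, beside 6.68% and 8.13% of 8777 genes. The class held 100, 118 and 37 cells, all in cluster 27. Between the controls, 6 of the 25 members were lower in labelled Het than in labelled WT and 1 was higher. Of all assessed genes, 5.80% were lower in that comparison. Gvin1 stood at 111, 112 and 12.9 CPM, 8.24-fold (4.56 to 18.3) and 8.31-fold (4.66 to 18.4) above KO. Isg15 stood at 47.7, 29.0 and 5.16 CPM and Gbp2 at 36.1, 25.7 and 5.16 CPM, with 4 UMIs of each in KO. Irf7 stood at 157, 115 and 34.8 CPM, 4.43-fold (3.01 to 6.98) and 3.24-fold (2.22 to 5.09) above KO, and Ifi27l2a at 272, 288 and 63.2 CPM. For these 5 genes the KO interval lay below both others. With cells thinned to 3000 UMIs, 4 members were still called lower: Gvin1, Irf7, Ifi27l2a and Bst2.

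Oasl2, an oligoadenylate synthetase-like protein, stood at 37.6, 24.9 and 9.03 CPM, Zbp1 at 40.4, 31.9 and 12.9 CPM and Trim30a at 120, 131 and 65.8 CPM. Dhx58 and Bst2 were also called, at 55.6, 52.2 and 31.0 CPM and at 345, 417 and 214 CPM. Trim25 was higher in KO, at 121, 142 and 253 CPM, 2.10-fold above labelled WT (1.70 to 2.59) and 1.79-fold above labelled Het (1.49 to 2.13). Irf9 was not called here, at 93.2, 87.5 and 105 CPM. Usp18 stood at 31.1, 8.70 and 3.87 CPM and was not called, and its KO interval overlapped that of labelled Het.

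The cells called conventional dendritic-like were not alike in the libraries. Of the genes of the XCR1-positive subset, Xcr1 and Itgae were nearly absent from KO: Xcr1 had 7, 45 and 0 UMIs, and Itgae stood at 121, 163 and 2.58 CPM. Others were lower but present, with Naaa at 936, 908 and 194 CPM, Wdfy4 at 659, 500 and 299 CPM and Cadm1 at 354, 381 and 161 CPM. Clec9a stood at 153, 159 and 99.4 CPM and the lineage factor Batf3 at 265, 194 and 173 CPM. The summed level of the 19 genes of this class was 20713, 28854 and 11958 CPM. Whether the member levels follow the subset was not tested.

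Plasmacytoid dendritic-like cells, the classical source of type I interferon, did not share the pattern. Of 13 assessed members 1 was lower in KO and 1 higher (7.69% each), beside 9.35% and 8.01% of 8473 genes, in 85, 45 and 23 cells. Ifi27l2a was lower, at 259, 390 and 71.6 CPM, and was 3.55-fold (2.34 to 5.88) and 5.34-fold (3.54 to 8.82) higher in the labelled WT and labelled Het libraries. Stat2 was higher, at 118, 87.9 and 205 CPM. Bst2 was nearly level, at 3426, 2733 and 2980 CPM, with KO between the controls. Irf7 stood at 85.4, 55.4 and 35.8 CPM and Gvin1 at 29.5, 55.4 and 16.3 CPM, neither called. With 23 KO cells, only wide differences were detectable. The summed level of 22 neutrophil genes in this class was 38608, 33624 and 3615 CPM and that of 17 natural killer and innate lymphoid genes was 899, 1055 and 2892 CPM, and their part was not tested.

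In the neutrophil lineage, which held 5992, 4955 and 5350 cells, 1 of 14 assessed members (7.14%) was lower in KO and 0 were higher, beside 7.01% and 2.92% of 7091 genes. The 1 member was Gvin1, at 21.5, 19.9 and 3.73 CPM, 5.76-fold (5.18 to 6.43) and 5.34-fold (4.83 to 5.93) above KO. Against labelled WT alone 4 members were lower, and the share of all genes for that pair is not given. Between the controls, 6 of the 14 members were lower in labelled Het than in labelled WT, beside 2.13% of all assessed genes. The lineage was then split by stage, and outside the precursor-like stage all clusters but 6 belonged almost wholly to KO (3, 5, 15, 28, 19 and 23) or to the controls (0, 2, 11, 22, 1 and 13).

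In precursor-like cells 4 of 13 assessed members were lower and 2 higher in KO, beside 11.7% and 3.35% of 7939 genes. Gvin1 stood at 19.9, 22.0 and 0.528 CPM, Bst2 at 39.9, 35.8 and 15.9 CPM, Irf9 at 14.0, 10.4 and 6.80 CPM and Ifi35 at 22.4, 22.1 and 14.5 CPM. Ifitm3 was higher, at 29.99, 77.1 and 195 CPM, and Ifit2 at 13.8, 13.4 and 20.9 CPM. In granule-stage-like cells 1 of 11 was lower and 0 higher, beside 6.2% and 3.65% of 6794 genes, and it was Gvin1 again, at 17.4, 17.3 and 3.71 CPM.

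In mature-like neutrophils 1 of 19 assessed members was lower and 5 were higher in KO, beside 7.38% and 15% of 5830 genes. Gvin1 was the lower one, at 36.8, 33.5 and 11.7 CPM. Parp14, a mono-ADP-ribosyltransferase, stood at 9.66, 4.73 and 28.4 CPM, Oasl2 at 12.6, 7.74 and 26.9 CPM and Oas3 at 35.4, 13.8 and 65.0 CPM. Oas3 was 1.84-fold above labelled WT (1.60 to 2.11) and 4.71-fold above labelled Het (3.88 to 5.77). Trim30a stood at 25.1, 33.7 and 59.9 CPM and Stat2 at 12.7, 7.95 and 20.7 CPM. In this stage 13 of 19 members were lower in labelled Het than in labelled WT, beside 4.46% of genes, so the control libraries differed too. By the same rule for a single pair, KO was lower than labelled WT in 6 members and higher in 6. Against labelled Het, KO was lower in 1 member and higher in 8. Shares of all assessed genes for these single pairs are not given, so the counts are no result about the members. KO cells came from clusters 19 and 23 and control cells from clusters 1 and 13, so library and cluster cannot be told apart here.

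B-lineage-like cells, at 1898, 1261 and 888 cells, had 2 of 14 assessed members lower and 2 higher (14.3% each), beside 12.2% and 9.49% of 8722 genes. Gvin1 stood at 79.8, 81.2 and 19.2 CPM, 4.15-fold (3.42 to 5.10) and 4.22-fold (3.49 to 5.18) above KO, and Bst2 at 29.9, 31.5 and 16.3 CPM. Parp14 was higher, at 23.5, 25.2 and 56.8 CPM, as was Ddx58 at 30.1, 23.2 and 52.5 CPM. Ifi27l2a was not called here, at 40.7, 51.5 and 44.9 CPM. Of the KO cells 321 (36.1% of the class) lay in cluster 24, which held 6 labelled Het cells and no labelled WT cells.

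Erythroid-like cells, at 129, 265 and 137 cells, had 2 of 14 assessed members lower and 1 higher, beside 9.73% and 6.87% of 8889 genes. Rsad2 stood at 217, 58.1 and 30.02 CPM, and was 7.20-fold (5.85 to 8.99) and 1.93-fold (1.57 to 2.41) above KO. Isg15 stood at 28.0, 4.43 and 1.59 CPM, with 6 UMIs in KO, and Ifih1 was higher at 17.8, 12 and 29.5 CPM. Both lower calls were lost when the class was drawn from per-cell marker scores or when each cell was thinned to 3000 UMIs. Basophil and mast-like cells, at 71, 73 and 57 cells, had 0 of 13 assessed members lower and 3 higher, beside 5.39% and 7.92% of 8976 genes. Parp14 stood at 4.10, 10.8 and 30.4 CPM, Ifitm3 at 35.8, 42.8 and 86.2 CPM and Eif2ak2, the kinase PKR, at 23.5, 25.7 and 41.0 CPM.

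Counts per cell show how the transcripts were spread. To compare cells of different depth, each was thinned to 3000 UMIs, and the number of members with at least 1 UMI was counted. The median was 4, 3 and 2 members in monocyte-like cells, 5, 4 and 3 in macrophage-like cells, 5, 5 and 4 in conventional dendritic-like cells and 1 in the neutrophil lineage of each library. Cells with at least 5 members made up 39.9% (36.3 to 43.5), 33.7% (30.2 to 37.3) and 9.61% (7.99 to 11.4) of monocyte-like cells. In macrophage-like cells they made up 63.2% (49.3 to 75.6), 38.9% (25.9 to 53.1) and 21.3% (14.0 to 30.2). KO lay below both control intervals in monocyte-like cells, while in macrophage-like cells its interval overlapped that of labelled Het. In conventional dendritic-like cells the shares were 61.0%, 58.1% and 43.2%, with overlapping intervals. In the neutrophil lineage, where member levels were low, such cells made up 5.60%, 1.28% and 3.33%.

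**Figure D4:**
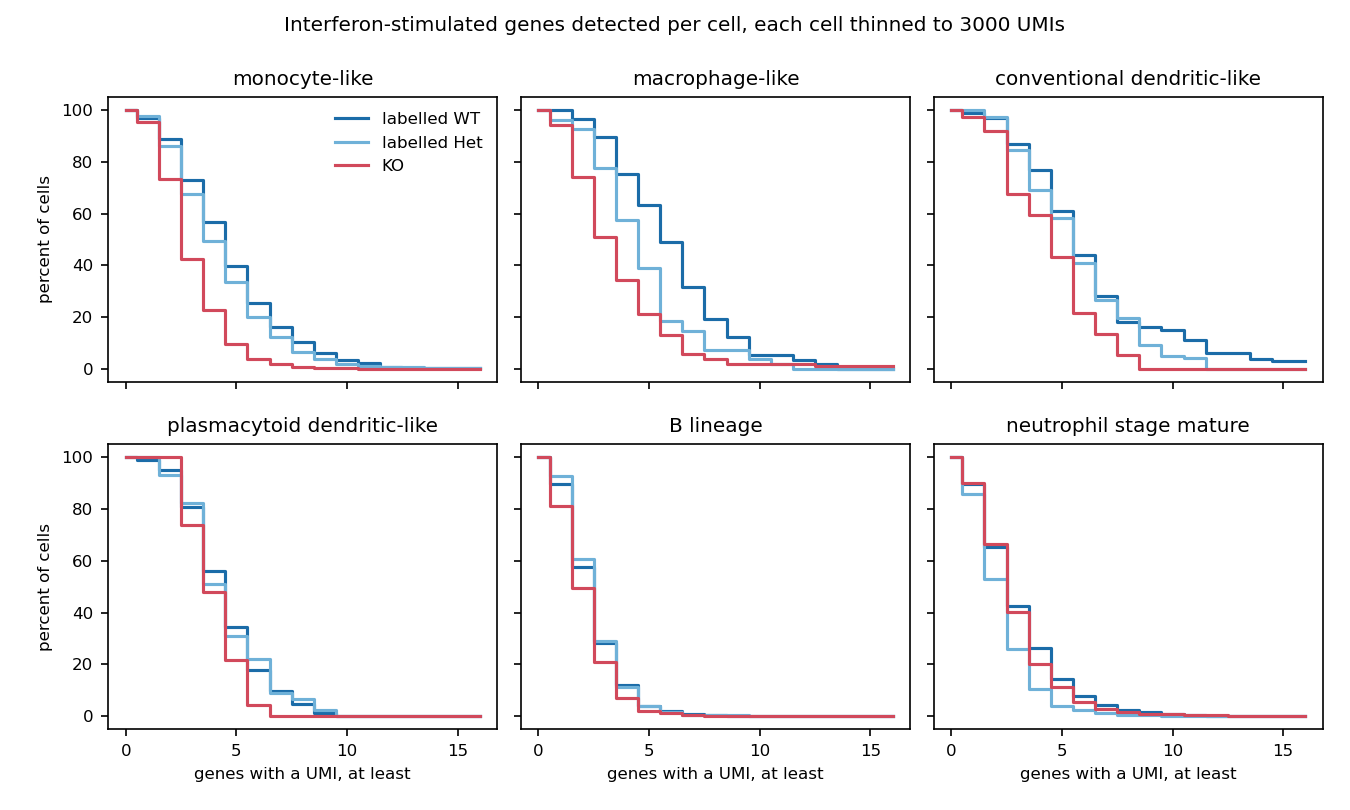
Share of cells by the number of the 32 genes with at least 1 UMI, after each cell was thinned to 3000 UMIs, with 1 line per library and 1 panel per class. Among monocyte-like cells 9.61% in KO have at least 5 of the genes, against 39.9% and 33.7% in labelled WT and labelled Het.

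For single members at the same depth, a Gvin1 UMI was found in 33.9%, 32% and 3.96% of monocyte-like cells, against 7.41%, 6.66% and 1.61% of the neutrophil lineage. Bst2 was found in 36.4%, 37.5% and 15.8% of monocyte-like cells, against 2.27%, 1.32% and 0.957% of the neutrophil lineage, and Irf7 in 20.3%, 16.1% and 6.16%, against 11.8%, 4.78% and 5.17%. The Irf7 share in KO monocyte-like cells was thus close to that in neutrophils of the same library. In KO an Ifi27l2a UMI was found in 16.4% of monocyte-like cells, against 44.8% and 35.5% in the controls. The 1% of cells with the most member UMIs held 9.01%, 9.30% and 6.45% of them. Of those cells 44.2%, 18.7% and 17.1% were plasmacytoid dendritic-like and 33.7%, 65.3% and 28.9% monocyte-like, while neutrophils made up 6.98%, 2.67% and 35.5%.

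The signalling route around these genes was read from lists of pathway genes. Ligands were at the limit of detection: of 20 type I and III interferon genes, 16 had a row and 11 had a UMI, with 26, 45 and 24 UMIs in all. Ifnk, the keratinocyte interferon, had 19, 30 and 9 UMIs and Ifnab had 5, 7 and 8. Ifna2 had 0, 3 and 1, Ifne had 0, 1 and 2 and Ifnz had 1, 2 and 1. Ifnb1, Ifna9, Ifna14, Ifna15, Ifna16 and Ifnl2 had 1 UMI each over the libraries. Ifng, the type II interferon, had 60, 104 and 51 UMIs. Both Ifnk and Ifng were lower in KO per UMI of the library. Ifnk was 3.96-fold (1.75 to 10.2) and 4.14-fold (1.99 to 10.3) higher in the labelled WT and labelled Het libraries, and Ifng 2.26-fold (1.54 to 3.36) and 2.61-fold (1.86 to 3.75). At these counts neither was assessed, since both stayed below 1 CPM in every library.

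The receptors were expressed in every library, and over all barcodes 0 of 6 were called. Ifnar1 stood at 57.4, 60.9 and 71.5 CPM and Ifnar2 at 164, 153 and 148 CPM. The interferon gamma receptor chains Ifngr1 and Ifngr2 stood at 284, 277 and 263 and at 79.4, 86.1 and 95.6 CPM, and the lambda receptor chains Ifnlr1 and Il10rb at 71.0, 50.9 and 44.3 and at 85.1, 98.8 and 103 CPM. In monocyte-like cells, Ifnar1 stood at 108, 124 and 126 CPM and Ifnar2 at 403, 346 and 275 CPM, neither called. Ifnar2 was lower in KO macrophage-like cells, at 429, 414 and 253 CPM. Ifnar1 was higher in KO in plasmacytoid dendritic-like cells, at 233, 265 and 541 CPM, and in B-lineage-like cells, at 71.9, 74.9 and 177 CPM.

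Of 10 kinases, STATs and other IRFs, all 10 were assessed over all barcodes and in monocyte-like cells, and 0 were called in either. In macrophage-like cells 3 of 10 were lower and 0 higher, beside 6.14% and 8.79% of all assessed genes, among them Irf1, a short-lived activator, at 147, 97.1 and 59.1 CPM and Jak2 at 138, 138 and 81.4 CPM. In conventional dendritic-like cells 2 of 10 were lower and 0 higher, beside 6.68% and 8.13%. Irf3 was lower there, at 114, 99.5 and 65.8 CPM, as was Irf8, the lineage factor of the XCR1-positive subset, at 2653, 1407 and 885 CPM. Irf1 did not reach the call in monocyte-like cells, at 68.0, 52.3 and 49.6 CPM, and Irf8 did not, at 894, 503 and 498 CPM. Of 20 assessed nucleic acid sensing genes in monocyte-like cells 2 were lower and 1 was higher, which is near the 10% and 5.32% of all assessed genes. These were Tlr9 (37.3, 25.6 and 14.3 CPM) and its adaptor Myd88 (317, 303 and 173 CPM) on the lower side and Tlr7 on the higher (22.5, 46.9 and 81.5 CPM). Tlr7, an endosomal sensor of RNA, was also higher in KO over all barcodes, at 14.7, 28.4 and 67.2 CPM, and in macrophage-like cells, at 58.4, 97.1 and 313 CPM.

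Other genes induced by type I interferon, a list of 64 of which 60 had a row, moved in both directions. In monocyte-like cells 14 of 49 assessed genes were lower and 2 higher, beside 10% and 5.32% of all assessed genes. In conventional dendritic-like cells 12 of 50 were lower and 4 higher, beside 6.68% and 8.13%. In macrophage-like cells 6 of 49 were lower and 5 higher, beside 6.14% and 8.79%. The median log2 ratio of this list in monocyte-like cells came to −0.25 and −0.13 for the labelled WT and labelled Het references, nearer to 0 than that of the 20 assessed members. Leading genes in monocyte-like cells were the Schlafen genes Slfn8 (31.7, 30.4 and 4.78 CPM) and Slfn4 (45.4, 51.3 and 8.38 CPM), the secreted glycoprotein Lgals3bp (61.5, 58.8 and 11.4 CPM) and Oas1a (22.3, 26.5 and 6.41 CPM). In macrophage-like cells Ifit3b, a near copy of Ifit3, stood at 18.3, 17.4 and 4.10 CPM and Lgals3bp at 700, 433 and 182 CPM, while Ifitm1 was higher in KO at 21.7, 48.5 and 231 CPM. In conventional dendritic-like cells Oas1a stood at 17.3, 27.8 and 2.58 CPM and Slfn8 at 57.1, 48.1 and 18.1 CPM. The list pointed the other way in B-lineage-like cells, where 2 of 39 assessed genes were lower and 10 higher, beside 12.2% and 9.49% of all assessed genes. Ifi204 was among the higher ones, at 19.5, 16.9 and 50.8 CPM. Of 34 genes induced mainly by interferon gamma, 31 had a row. In monocyte-like cells 3 of 12 assessed were lower and 0 higher, beside 10% and 5.32% of all assessed genes. Their median log2 ratios there were −0.75 and −0.38. In macrophage-like cells 2 of 20 were lower and 3 higher, beside 6.14% and 8.79%. In conventional dendritic-like cells 1 of 17 was lower and 0 higher, beside 6.68% and 8.13%.

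Of the 32 members with a row, Ifit1, Oasl1 and Ifi44 were never assessed in a class, since their means stayed under 10 CPM or their counts under 30 UMIs. Ifi44 had 5, 24 and 22 UMIs over all barcodes, Ifit1 had 104, 110 and 94 and Oasl1 had 91, 105 and 63. A further 5 members, Usp18, Isg20, Ifit2, Cmpk2 and Xaf1, were assessed in a class but called in none of the 8. Ifit3 can share probe signal with Ifit3b, and Gvin1, Trim30a, Gbp2, Ifi27l2a and the Oas genes also have close relatives, so their values are uncertain to that extent.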

How the data were processed

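Per the file headers and the submitters' processing notes, the authors made the deposited UMI counts with Cell Ranger 7.0.0 on mm10, as whole-number counts per gene and barcode, not normalised. The sources used state no settings, probe set or barcode filter. The members and gene lists were chosen with earlier results of these data known.

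Doublets were called per library (scanpy 1.11.5), marking 273, 186 and 298 barcodes and leaving 9327, 7814 and 7947 cells. Cells were clustered together (2000 variable genes, 40 components, 20 neighbours, Leiden resolution 1.0) without the members, other induced genes, Pex2 or sex-linked genes, which gave 34 clusters. Classes were named only from marker lists, as cells like a type, so another annotation may name them otherwise. Counts were summed per library and class. CPM carry exact Poisson intervals, ratios exact conditional binomial intervals and shares exact Clopper-Pearson intervals, all 95%, for counting error only. Log2 ratios had 0.5 UMIs added. No test was possible with single libraries. Thinning to 3000 UMIs left out 770, 297 and 333 shallower barcodes. No filter on genes beyond a mean of 10 CPM and 30 UMIs was applied.

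All members are accounted for. Values are given for called members (up to 8 per class and direction), the 8 highest members, receptors, detected ligands, Irf1, Irf8 and up to 4 called pathway genes per class and direction; others named were chosen after their values were seen. The values of 1 pathway gene are not reported here. The call rule was tested on simulated counts with known changes. Alternatives used edgeR 4.0.16 and DESeq2 1.42.0 factors, in R 4.3.3, other filters and folds, marker-score classes, kept doublets and thinned cells.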

Additional observations from a re-analysis of the deposited data

Results flagged for a closer look

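For 3 members every KO ratio pointed one way in some classes and the other way in mature-like neutrophils. These differences between classes were not tested, and KO and the control libraries hold different clusters of mature-like neutrophils. All values are log2 ratios of KO over labelled WT and over labelled Het, which share the KO library. Oas3 had −1.66 and −1.63 in monocyte-like cells, against 0.88 and 2.24 in mature-like neutrophils. Oasl2 had −1.97 and −1.37 in conventional dendritic-like cells, against 1.10 and 1.79 in mature-like neutrophils. Trim30a had −0.87 and −0.97 in monocyte-like cells, −1.2 and −0.98 in macrophage-like cells and −0.86 and −0.98 in conventional dendritic-like cells, against 1.25 and 0.83 in mature-like neutrophils.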

How the results depend on the processing

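No paired analysis was possible because each genotype has 1 library. Counts of called members that moved by over 1.5 times are given here. The causes were not tested unless the setting has fewer genes or cells by construction. Shares of all genes called under each setting are not given, here or in the next paragraph. The counts therefore show how calls depend on the setting and are no result about the members. With TMM scaling or DESeq2 size factors, 3 members were lower over all barcodes under each, while 2 or 1 were higher there and 2 were higher in erythroid-like cells under both. A minimum mean of 1 CPM gave 8 lower over all barcodes, 21 in monocyte-like, 4 in B-lineage-like and 3 in neutrophil-lineage-like cells, with 1 higher in the last. A minimum of 50 CPM gave 1 lower over all barcodes, 6 in monocyte-like, 5 in conventional dendritic-like, 1 each in B-lineage-like and erythroid-like and 0 in neutrophil-lineage-like cells, with 1 higher in basophil and mast-like and 0 in B-lineage-like and erythroid-like cells. A fold of 2 gave 3 lower over all barcodes, 7 in monocyte-like and 1 each in B-lineage-like and erythroid-like cells, with 1 higher in B-lineage-like and 0 in conventional dendritic-like, plasmacytoid dendritic-like and erythroid-like cells. Classes from per-cell marker scores gave 0 lower and 0 higher in erythroid-like and 2 lower in neutrophil-lineage-like cells. Cells thinned to 3000 UMIs gave 4 lower in each of macrophage-like and conventional dendritic-like cells, 0 in erythroid-like and 2 in neutrophil-lineage-like cells. Thinned cells gave 1 higher over all barcodes and in the neutrophil lineage, and 0 in basophil and mast-like, erythroid-like and plasmacytoid dendritic-like cells.

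These settings were chosen after seeing the data. Against labelled WT alone, 9 members were lower over all barcodes, 17 in conventional dendritic-like, 4 in neutrophil-lineage-like and 2 in plasmacytoid dendritic-like cells. There, 1 was higher over all barcodes, in macrophage-like and in neutrophil-lineage-like cells and 2 in each dendritic-like class. Against labelled Het alone, 4 were lower in erythroid-like, 2 in plasmacytoid dendritic-like and 1 in basophil and mast-like cells. There, 2 were higher over all barcodes and in macrophage-like, neutrophil-lineage-like and plasmacytoid dendritic-like cells, and 4 in erythroid-like cells. Dividing monocyte-like cells had 7 lower, and those outside cluster 16 had 6. Of the counts of called members over all barcodes and in the 8 classes, 127 stayed within 1.5 times and 59 moved; keeping doublets moved none of the 16 it touched. With 1 library per genotype, depth limits only counting error: 23 plasmacytoid dendritic-like and 37 conventional dendritic-like KO cells leave wide intervals.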
